A study of Mus musculus with 12 samples.

Results

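The cytosolic ribosomal protein genes of the mouse kidney were described in 4 groups of a Pkd1 model of polycystic kidney disease. Members were chosen by symbol, as genes named Rps or Rpl with a number and an optional suffix, together with Rpsa and Rplp0 to Rplp2. Kinases named Rps6k and symbols marked as pseudogenes were left out. The pattern matched 85 of 24062 genes, and 82 of them had at least 120 counts summed over the libraries. The 82 members comprised 33 small subunit and 49 large subunit genes, and all 82 passed the filter on low counts, which kept 14970 genes for testing. The 3 symbols below 120 counts were Rpl26 and Rpl10l, at 0 counts in every library, and Rpl39l, at 4 counts in all.

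RNA-seq libraries were made from kidneys of adult mice, 12 in all, with 3 libraries in each of 4 groups, named here by surgery (sham or UNx) and by Cre (CreMinus or CrePlus). All mice belonged to the Pkd1 model and had received tamoxifen, and they were 6 to 8 weeks old. CrePlus mice carried Cre and CreMinus mice did not, and the labels name neither the promoter that drives Cre nor the Pkd1 allele. UNx mice lost 1 kidney by unilateral nephrectomy and sham mice kept both, and tissue was taken 4 weeks after surgery. Fewer cells of a type and less RNA per cell cannot be told apart in whole tissue.

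Ribosomal proteins assemble with ribosomal RNA into the small subunit, which reads the mRNA, and the large subunit, which forms the peptide bond. The subunits contain nearly every protein at equal number, and the genes are therefore often described as a unit. Most of their mRNAs begin with a run of pyrimidines at the 5′ end, the TOP motif, through which the growth kinase complex mTORC1 and its effector Larp1 control their translation and stability. Unassembled Rpl5 and Rpl11 bind Mdm2 and so stabilise p53, the tumour suppressor. Cyst growth in Pkd1 models and growth of the remaining kidney after nephrectomy are both processes in which mTORC1 activity is known to take part. Several members are relatives of another member: Rps27l, Rpl22l1, Rpl7l1, Rpl36al, Rpl3l and Rps4l. Rpl3l is best known from heart and skeletal muscle.

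Start sequences are shown because the TOP motif is the feature that links these genes to mTORC1. Sequences came from the RefSeq promoter table for GRCm38.p6, which held a start for 61 of the 82 members. Each line gives 30 bases, 10 before the annotated start and 20 from it on, 5′ to 3′ in the sense of the gene. Capitals mark a C followed by at least 4 bases that are each C or T, with the C within 10 bases of the start. The first 4 genes hold the pattern: Rps10 followed the other members most closely over the libraries, Rps6 encodes the substrate of S6 kinase, Rplp2 encodes a stalk protein of the large subunit, and Rpl22l1 is the relative of Rpl22. The other 4 hold no such run: Rps28 and Rps4x differed between the sexes, and Rpl7l1 and Rpl36al followed the other members least among abundant genes.
Rps10 (chr17:27635225-27635254, minus strand): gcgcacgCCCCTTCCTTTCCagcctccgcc
Rps6 (chr4:86857348-86857377, minus strand): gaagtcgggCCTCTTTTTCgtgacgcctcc
Rplp2 (chr7:141447641-141447670, plus strand): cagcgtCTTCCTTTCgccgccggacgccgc
Rpl22l1 (chr3:28805498-28805527, plus strand): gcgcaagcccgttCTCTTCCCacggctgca
Rps28 (chr17:33824543-33824572, minus strand): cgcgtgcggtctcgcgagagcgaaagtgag
Rps4x (chrX:102189372-102189401, minus strand): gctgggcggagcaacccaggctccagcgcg
Rpl7l1 (chr17:46782637-46782666, minus strand): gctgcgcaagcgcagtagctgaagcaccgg
Rpl36al (chr12:69184048-69184077, minus strand): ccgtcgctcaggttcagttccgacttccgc

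The TOP pattern stood at an annotated start of 37 of the 61 members (60.7%), against 34.4% of 27025 genes in the table and 36.9% of the 11724 tested genes with a start. Within 5 bases of the start it was found in 29 members (47.5%), against 21.2% of all genes. Genes with several annotated starts had more chances to match, and among genes with 1 start the shares were 52.9% of 51 members and 30.7% of all genes. The words GGAAGT or ACTTCC, the core bound by ETS factors, were present on either strand within the 300 bases around the start in 49.2% of members and 26.5% of all genes. The words AAGATGG or CCATCTT, a core of YY1 sites, were present in 16.4% of members and 7.28% of all genes. A match describes the letters and is not a measured site.

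Pkd1, the gene the model targets, was measured over its whole length and so does not show a deleted exon. It had 65.0 ± 10.3 CPM (TMM-scaled counts relative to library size; mean ± SD, n = 3 in each group) in CreMinus and 52.0 ± 10.5 in CrePlus sham kidneys, and 56.8 ± 12.9 and 43.4 ± 3.28 after UNx. The log2 fold change averaged over surgery was -0.35 ± 0.13 (SE; adjusted p = 0.316, edgeR). Library totals were 18914300 to 22480895 counts in 8 libraries. They were 41699032 to 42785476 in the other 4, namely all of UNx CrePlus together with replicate 1 of UNx CreMinus. The labels give no sex. By Xist and Y-linked counts, 5 libraries were male (replicate 3 of each sham group, replicate 1 of each UNx group and replicate 2 of UNx CrePlus) and 7 female. Each group thus held both sexes, unevenly. The tissue label was read against 8 proximal tubule markers, which summed to 12056 to 15545 CPM, with none at 0 in any library.

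Levels were compared between genes as CPM per kilobase of coding length, for the 81 members with a coding length in GENCODE vM21. The median was 518 CPM per kilobase. The quartiles were 392 and 611, so most members lay close together although their coding lengths ran from 138 to 1257 bases. Small and large subunit genes had medians of 524 and 510 CPM per kilobase. The highest levels belonged to Rpl41, the smallest protein of the large subunit, at 2796 CPM per kilobase, Rps29 at 1150 and Rplp1 at 1011. By length of the whole transcript Rpl41 stood at 758 CPM per kilobase. The lowest levels belonged to Rpl3l at 0.913, Rps27 at 1.98, Rpl30 at 2.61 and Rpl34 at 5.77 CPM per kilobase.

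**Figure D1:**
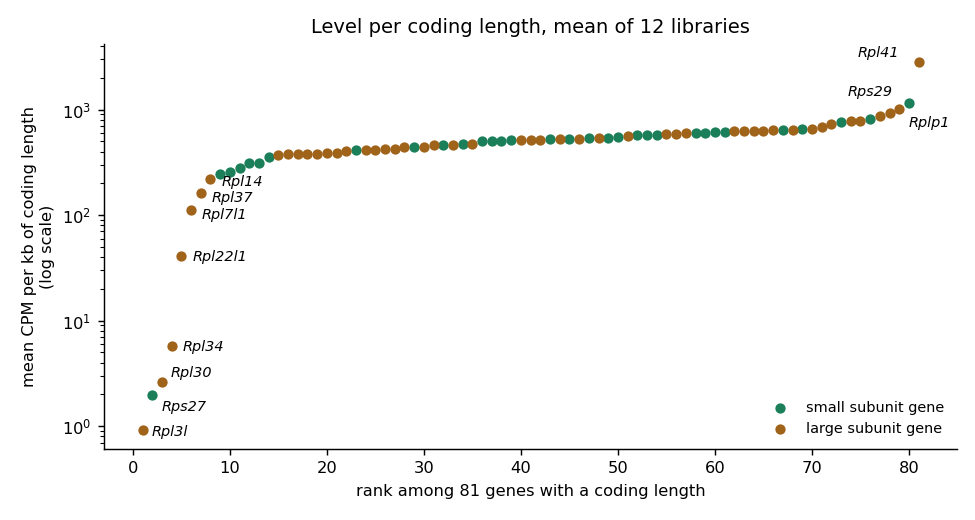
Mean CPM per kilobase of coding length over 12 libraries (log scale) against rank, for 81 members coloured by subunit. Most genes lie on a plateau around the median of 518, with Rpl41 above it and Rpl3l, Rps27, Rpl30 and Rpl34 far below.

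Rps27, Rpl30 and Rpl34 encode core ribosomal proteins, yet their counts were 3 to 31, 13 to 42 and 31 to 95 per library. Ribosomal protein genes have many near-identical copies in the genome, how the authors counted reads that match several places is not given in the sources used here, and the values of these 3 genes and of Rpl26 are therefore uncertain. Reads in overlapping exons are a further limit, since the library kit does not mark the strand. In GENCODE vM21, 39 members shared exon bases with another gene, and for Rpl35 (66.2%) and Rpl23a (62.3%) these were most of their exon bases. Of the low members, Rpl30 shared 24.8% and Rps27 and Rpl34 none. Where these 3 genes are counted below, their values carry the same limit.

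The relatives were below their partners in abundance per coding length in 3 of the 5 pairs with a coding length. Rpl7l1 had 112 CPM per kilobase against 594 for Rpl7, Rpl22l1 had 41.1 against 392 for Rpl22, and Rpl3l had 0.913 against 423 for Rpl3. Rpl36al, at 405, and Rpl36a, at 370, were at like levels. Rps27l had 312 against the uncertain 1.98 of Rps27. Rps4l has no coding length, because GENCODE and RefSeq annotate it as a transcribed pseudogene, at chr6:148354656-148355596.

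The 82 genes together took 1.79% to 2.67% of a library's counts. The share was 2.67%, 2.32% and 1.97% in the sham CreMinus libraries and 1.91%, 2.50% and 1.79% in the sham CrePlus libraries. It was 1.89%, 2.15% and 2.28% in the UNx CreMinus libraries and 1.91%, 1.89% and 2.16% in the UNx CrePlus libraries. The groups overlapped throughout, with means of 2.32% ± 0.349, 2.07% ± 0.380, 2.11% ± 0.197 and 1.98% ± 0.152 (SD, n = 3 each) in the same order. Small subunit counts stood to large subunit counts at 0.619 to 0.646 in every library, so the subunits moved together. Mitochondrial ribosomal protein genes, which serve another ribosome, took 0.324% to 0.385%.

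**Figure D2:**
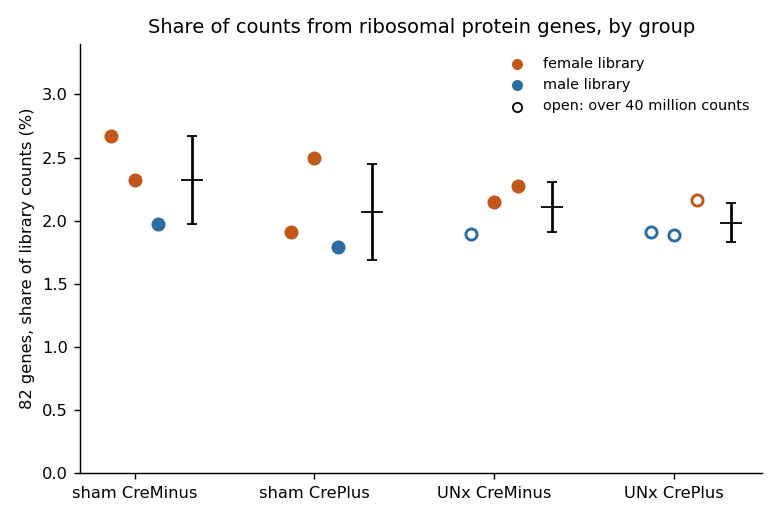
Share of each library's counts from the 82 genes (percent), by group, with colour for sex and open points for the 4 deep libraries; bars give the mean and SD of 3 libraries. The 4 groups overlap, and in each group the male libraries are the lowest.

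Members varied together from library to library. The correlation of a member with the mean of the other members over the 12 libraries had a median of 0.937, and 55 members reached 0.9. These are descriptions, since the points share library depth and scaling. The closest follower was Rps10, of the small subunit, at 0.993. Its CPM was 301, 249 and 229 in CreMinus and 188, 279 and 212 in CrePlus sham libraries, and 221, 243 and 244 in CreMinus and 199, 208 and 226 in CrePlus UNx libraries. Sham CreMinus replicate 1 was the highest library for 64 of the 82 members. UNx CrePlus replicate 1 was the lowest for 29 and sham CrePlus replicate 1 for 42. For the latter sham library the submitted title holds its group where the other titles hold a number that may name the animal. The authors left that library out of a second version of their sham table. The median member stood 0.30 above its own mean on the log2 CPM scale in sham CreMinus replicate 1 and at -0.23 in sham CrePlus replicate 1. The share from Rn45s, the ribosomal RNA precursor, was 0.352% and 0.566% in these 2 libraries and 0.108% to 1.15% over all, and its part in these levels was not tested.

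**Figure D3:**
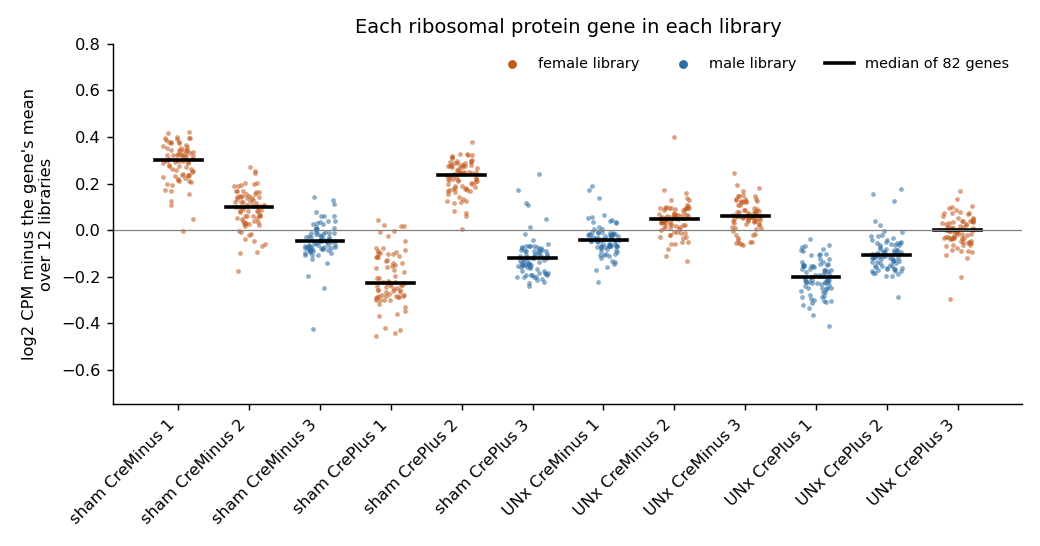
Log2 CPM of each of the 78 members with a mean of at least 10 CPM, minus that gene's mean over 12 libraries, in every library; colour gives sex and bars the median of all 82 members. Genes shift as a block, from a median of 0.30 in sham CreMinus 1 to -0.23 in sham CrePlus 1.

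The members that stood outside this common movement were mostly the relatives and the low genes. Of the 7 members with a correlation under 0.5, Rpl7l1 (0.126), Rpl36al (0.328), Rps27l (0.414) and Rpl3l (-0.314) are relatives, and Rps27, Rpl30 and Rpl34 are the low genes described above. Rpl7l1 was the steadiest abundant member, at 76.6 to 90.6 CPM, with an SD of 0.073 on the log2 scale. Rpl29 and Rps2 followed with SDs of 0.097 and 0.099. The widest members with a mean of at least 10 CPM were Rps4l at 0.28, X-linked Rpl36a at 0.25 and the stalk protein gene Rplp1 at 0.22. The 78 members with a mean of at least 10 CPM had a median SD of 0.17, and 9816 genes at that level had 0.16. Members with the TOP pattern had a median correlation of 0.937 and those without it 0.924. Their median log2 fold changes with Cre, averaged over surgery, were -0.14 and -0.13.

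Among 9738 other genes with a mean of at least 10 CPM, the patterns most like the members' mean over the 12 libraries belonged to Slc51b (Pearson r = 0.974), Gnb2l1 (0.968), Pfdn5 (0.958), Eef1b2 (0.956) and Fau (0.953). Gnb2l1 encodes Rack1, a protein of the small subunit, and Fau encodes a fusion that releases the ribosomal protein Rps30. Eef1b2 is a subunit of the elongation factor that delivers transfer RNA, and Slc51b is a bile acid and steroid transporter subunit of the tubule. Abundant TOP mRNAs ranged widely, with Eef1a1 at 0.855, Tpt1 at 0.306, Eef2 at 0.153 and Pabpc1 at -0.456.

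In sham kidneys, 77 of the 82 members were lower with Cre and 5 higher, and no member passed the test. Of all tested genes, 49.6% were lower, and 0.0267% were called at a Benjamini-Hochberg adjusted p under 0.05 in edgeR's quasi-likelihood test. The median member had a log2 fold change of -0.14, or -9.29%, and the median of all genes was 0.0014. No member reached an unadjusted p under 0.05 in edgeR or in DESeq2, while 4.05% of all genes did in edgeR. Rpl13, of the large subunit, was the 1 member whose groups did not overlap, against 3.49% of all genes lower without overlap. Its CPM was 351, 309 and 309 in sham CreMinus and 241, 308 and 295 in sham CrePlus libraries, with a log2 fold change of -0.20 ± 0.12 (SE; adjusted p = 1.0, edgeR).

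The smallest p-values in sham kidneys, none passing, belonged to Rpl4 (log2 fold change -0.22), Rpl39 (-0.24), Rplp1 (-0.29), Rpl10a (-0.18) and Rps25 (-0.20), all lower with Cre. The 5 members on the other side, Rps4l at 0.082, Rpl7l1 at 0.028, Rps27l, Rps28 and Rpl22l1, were within 0.082 of 0. The size of the shift rested on a few libraries. The median was -0.059 without sham CreMinus replicate 1, -0.21 without sham CreMinus replicate 3, -0.064 without sham CrePlus replicate 1 and -0.29 without sham CrePlus replicate 2. An unadjusted p under 0.05 was reached by 43 members without sham CrePlus replicate 2 and by 4 without sham CreMinus replicate 3, and no fit called a member. Members varied together, so such counts do not stand for separate results. In the authors' deposited sham table without sham CrePlus replicate 1, 65 members were lower and none was called. The summed level of 8 cell cycle genes was 80.1 to 93.7 CPM in CreMinus and 97.2 to 118 CPM in CrePlus sham libraries, without overlap. None of these genes was at 0 in any library. After UNx the same sums overlapped, at 77.8 to 135 CPM in CreMinus and 104 to 236 in CrePlus libraries. Of the other marker lists, only the low B cell list was also without overlap in sham kidneys, at 1.362 to 2.625 and 0.939 to 1.356 CPM. The part of these levels in the sham result was not tested.

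In UNx kidneys, 79 members were lower with Cre and 3 higher, against 52.2% of all genes lower, and no member passed the test. Called genes made up 0.14% of all tested genes in this comparison. An unadjusted p under 0.05 was reached by 1 member in edgeR and 1 in DESeq2, and by 10.7% of all genes in edgeR. The median member had a log2 fold change of -0.12, and the median of all genes was -0.011. In 15 members every UNx CrePlus library was below every UNx CreMinus library, a pattern that 7.47% of all tested genes showed, and none lay wholly above. The 15 included Rpl11, Rps15, Rpl36 and the stalk protein gene Rplp2. Rpl36 had 136, 148 and 155 CPM in UNx CreMinus and 117, 126 and 132 in UNx CrePlus libraries, a log2 fold change of -0.23 ± 0.15 (SE; adjusted p = 0.618, edgeR). The sets are apart by a few CPM, and the gene did not pass. Others among the members of smallest p were Rps4l (-0.58), Rps21 (-0.22) and Rpl15 (-0.16), and Rps27l (0.055), Rpl3l (0.21) and Rps27, the last 2 with few counts, were the 3 above 0.

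Sex and depth moved with this comparison, because 2 of 3 UNx CrePlus libraries were male against 1 of 3 UNx CreMinus libraries, and all UNx CrePlus libraries were deep. The median member stood at -0.076 with a term for sex, at -0.12 with terms for sex and depth and at -0.055 with a term for depth alone. No member was called in these fits. In females only it stood at -0.040, but that fit held 1 UNx CrePlus library, replicate 3. This library was deep and the 2 female UNx CreMinus libraries were not, so depth cannot be told apart from Cre there. Marker levels of other cells and states moved too. The summed level of 6 loop of Henle and distal tubule markers was 11412 to 12078 CPM in UNx CreMinus and 7106 to 10654 in UNx CrePlus libraries, without overlap. That of 5 endothelial markers was 343 to 383 and 390 to 438 CPM, also without overlap. The groups overlapped for 5 fibroblast markers, at 163 to 307 and 221 to 574 CPM, and for 11 macrophage markers, at 140 to 163 and 162 to 309 CPM. None of these markers was at 0 in any library. The erythroid list was at 12.7 to 23.0 and 2.95 to 8.21 CPM, without overlap, with 1 of its 5 genes passing the filter and the 4 globin genes at 0 in some library. The part of these levels in the result was not tested.

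The Rpl5 and Rpl11 pair, whose products bind Mdm2, did not pass in either surgery. Rpl11 had 377, 303 and 274 CPM in CreMinus and 277, 356 and 268 in CrePlus sham libraries, and 292, 305 and 323 in CreMinus and 242, 269 and 288 in CrePlus UNx libraries. The sham groups overlapped, while the UNx CrePlus libraries were all lower. Averaged over surgery, the log2 fold change with Cre was -0.14 ± 0.10 for Rpl11 (SE; adjusted p = 0.59, edgeR) and -0.18 ± 0.10 for Rpl5 (adjusted p = 0.502, edgeR). In the same average, 4 of 13 measured genes of the p53 axis were called higher with Cre and none was called lower. Of all tested genes 0.521% were called, but this list was chosen with earlier results of these data known. Called or not, 11 of the 13 were above 0 and 2 below. The called genes were Zmat3 (0.87 ± 0.07), Cdkn1a (1.64 ± 0.15), which encodes the cell cycle inhibitor p21, Eda2r (2.12 ± 0.22) and Ccng1 (0.62 ± 0.09), all known targets of p53. Their adjusted p-values were 0.000178, 0.00108, 0.00163 and 0.0166 (edgeR). In each the 6 CrePlus libraries were above the 6 CreMinus libraries, an order that 132 of all 14970 tested genes showed. Whether Rpl5 or Rpl11 had a part in these levels was not tested.

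Averaged over surgery, 80 members were lower with Cre and 2 higher, with a median log2 fold change of -0.14, or -9.01%, against -0.0030 over all genes. Of all genes, 50.8% were lower. No member was called in edgeR or DESeq2, and 0 and 2 had an unadjusted p under 0.05, as did 11.8% of all genes in edgeR. The average uses the same libraries as both comparisons above and adds no independent evidence. Rplp1 had the smallest p, at 451, 383 and 331 CPM in CreMinus and 264, 396 and 294 in CrePlus sham libraries, and 326, 374 and 388 in CreMinus and 287, 312 and 345 in CrePlus UNx libraries. Its groups overlapped within the sham and within the UNx kidneys, and its log2 fold change was -0.25 ± 0.12 (SE; adjusted p = 0.438, edgeR). Rplp0, the base of the same stalk, was at -0.06 ± 0.09 and Rplp2 at -0.17 ± 0.10. Rps6 was at -0.08 ± 0.10 and Rpsa, which is also known as the laminin receptor, at -0.12 ± 0.09, and none of these passed. Without sham CrePlus replicate 2 the median over members was -0.22 and 53 members had an unadjusted p under 0.05, with none called. These 53 are not separate results, since members varied together. Next to Rplp1 in p were Rps4l (-0.25), Rpl36 (-0.21), Rpl4 (-0.18) and Rpl23 (-0.22), and the 2 members above 0 were Rps27l (0.031) and Rpl3l (0.085).

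**Figure D4:**
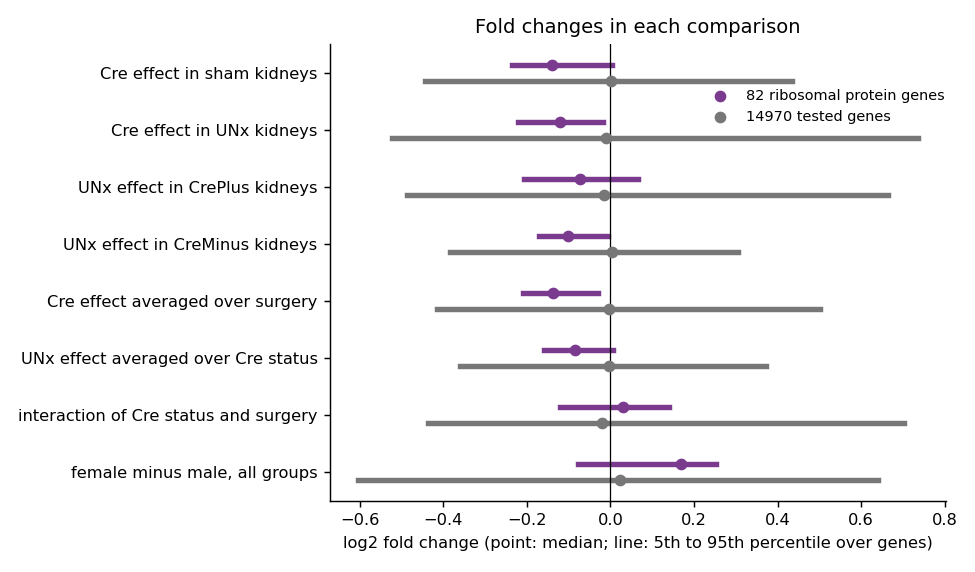
Median (point) and 5th to 95th percentile (line) of log2 fold changes over the 82 members and over tested genes, for 7 comparisons of the design and for sex. The members' medians lie below 0 in the Cre and UNx comparisons and at 0.17 in females, with a narrower spread than that of all tested genes.

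After nephrectomy, members were again slightly lower, and none passed the test. In CrePlus kidneys 67 were lower and 15 higher in UNx than in sham, with a median log2 fold change of -0.072, against 53.7% of all genes lower. In CreMinus kidneys 78 were lower and 4 higher, with a median of -0.10, against 48.6% of all genes. The share of all genes called was 0.0% in both, and 6.83% and 1.3% had an unadjusted p under 0.05, against 1 member and 0 members, with the same counts in DESeq2. Groups without overlap were seen for Rps4l in CrePlus kidneys, lower in UNx as were 5.05% of all genes, and for no member in CreMinus kidneys. In CrePlus kidneys the smallest p-values on the lower side belonged to Rps4l (-0.37), Rps21 (-0.26), Rpl37 (-0.22) and Rps28 (-0.23), and on the higher side to Rpl34, Rps12, Rpl14, Rpl30 and Rps15a (0.041 to 0.27). In CreMinus kidneys those on the lower side included Rps18 (-0.20), Rpl5 (-0.18), Rpl17 and Rpl24, and on the higher side to Rps4l (0.29), Rpl34, Rpl30 and Rpl7l1. Each comparison shares libraries with the Cre comparisons.

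The direction in CrePlus kidneys rested on sham CrePlus replicate 2. Without it, 22 members were lower and the median was 0.058. The median was -0.17 and -0.12 when replicate 1 or 3 of sham CrePlus was left out, and -0.029 and -0.11 when replicate 1 or 3 of UNx CrePlus was. With a term for depth 38 were lower and the median was 0.012, while with terms for sex and depth 68 were lower and the median was -0.087. Only UNx CreMinus held both deep and less deep libraries, and its deep library, replicate 1, was also its male library. A term for depth alone therefore cannot be told apart from sex in that group. Within the CrePlus libraries alone, sequencing depth cannot be told apart from surgery, because all 3 UNx libraries were deep and all 3 sham libraries were not. In CreMinus kidneys the median was -0.012, with 50 members lower, without sham CreMinus replicate 1, and -0.18 without sham CreMinus replicate 3. Averaged over Cre status, 77 members were lower in UNx, among them all 33 small subunit genes, those of smallest p including Rpl37 (-0.16), Rps21, Rps19 and Rpl36, with a median of -0.085, where 51.1% of all genes were lower and 0.0% called. No member had an unadjusted p under 0.05 in edgeR or DESeq2, and 5.66% of all genes did in edgeR. This median was -0.019, with 54 members lower, without sham CrePlus replicate 2, -0.050 without sham CreMinus replicate 1 and -0.13 without sham CrePlus replicate 1. It was -0.055 with a term for sex, -0.036 with a term for depth and -0.11 with terms for both. Rpl34 (0.25 ± 0.17, SE) and Rpl30 (0.16), with few counts each, were the largest positive values, and Rpl7l1, Rpl36al and Rpl14 were at 0.012, 0.013 and 0.0086.

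No member passed edgeR's interaction test of whether the Cre difference depended on surgery, and none passed in DESeq2. In edgeR 0.0% of all genes were called. The interaction had a median of 0.030 over members, with 49 above 0 and 33 below, and -0.021 over all genes, of which 45.3% were above 0. Its sign turned with single libraries: the median was -0.060 without sham CreMinus replicate 1, -0.076 and -0.019 when replicate 1 or 3 of sham CrePlus was left out, -0.022 when replicate 3 of UNx CrePlus was, and -0.0032 when replicate 1 of UNx CreMinus was. It was 0.16, with 74 members above 0, without sham CrePlus replicate 2, 0.086 without sham CreMinus replicate 3 and 0.070 without UNx CrePlus replicate 1. After Rps4l, the smallest p-values belonged to Rpl7l1 (-0.09), Rps28 (-0.16), Rps21 and Rpl37 below 0 and to Rps12 (0.21), Rps15a (0.17), Rpl10, Rps25 and Rpl39 above it. Rps4l was the 1 member with an unadjusted p under 0.05 in edgeR, where 1.85% of all genes had one, and 1 member had one in DESeq2. It had 14.2, 13.5 and 9.21 CPM in CreMinus and 12.2, 15.3 and 11.7 in CrePlus sham libraries, and 13.99, 16.4 and 14.7 in CreMinus and 9.29, 10.1 and 10.8 in CrePlus UNx libraries. The UNx CrePlus libraries were below every UNx CreMinus and every sham CrePlus library, and the sham groups overlapped. The UNx CreMinus library that was as deep and male, replicate 1, had 13.99 CPM.

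The log2 fold change of Rps4l with Cre was 0.082 ± 0.17 in sham and -0.58 ± 0.17 in UNx kidneys (SE; unadjusted p = 0.0055, adjusted p = 0.312, edgeR), and the interaction was -0.66 ± 0.24 (adjusted p = 1.0, edgeR). Over the alternatives the adjusted p in UNx kidneys ran from 0.0801 in DESeq2 to 0.905 in edgeR without UNx CrePlus replicate 1, with log2 fold changes of -0.63 to -0.48. The authors' deposited table for UNx kidneys lists Rps4l at a log2 fold change of -0.52 with an adjusted p of 0.011. It was the 1 member of 82 called there, where 267 of all 14530 tested genes were called. The X-linked Rps4x, the small subunit gene that Rps4l resembles by name, had 397 ± 33.9 CPM in CreMinus and 391 ± 48.2 in CrePlus kidneys after UNx (SD, n = 3 each), a log2 fold change of -0.02 ± 0.16 (SE; adjusted p = 0.979, edgeR). Rps4l had 197 to 544 counts per library. Its sequence was not compared with that of Rps4x, and whether the 2 share reads was not tested.

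**Figure D5:**
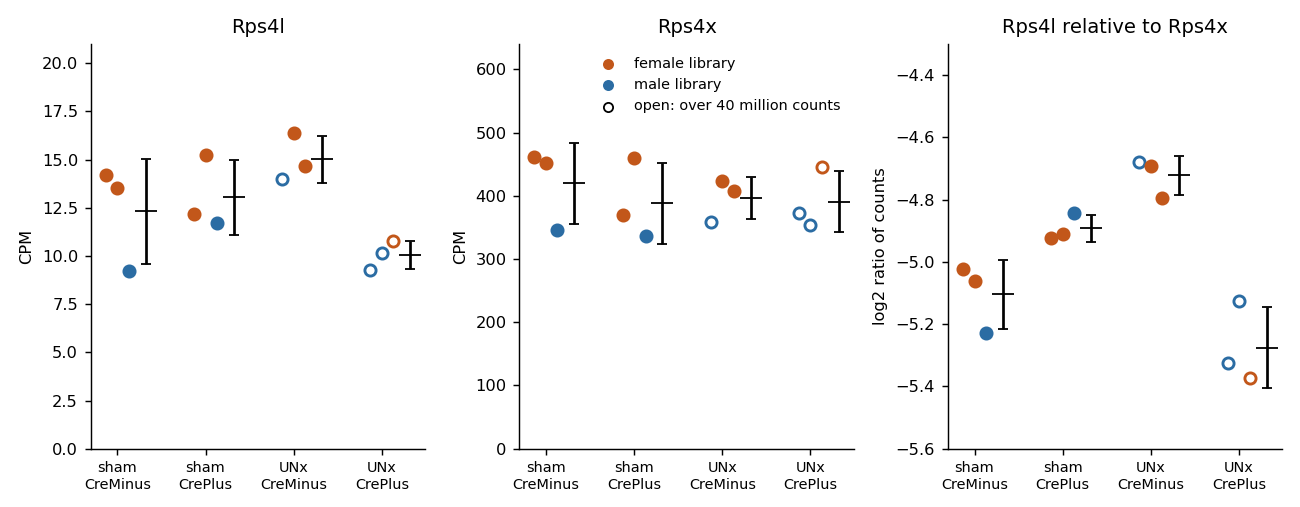
CPM of Rps4l and Rps4x, and the log2 ratio of their counts, by group; colour gives sex, open points mark the 4 deep libraries, and bars give mean and SD of 3 libraries. Rps4l has its lowest group mean in UNx CrePlus (9.29 to 10.8 CPM), though the lowest library is sham CreMinus 3 at 9.21 CPM, and Rps4x overlaps between all groups.

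Ratios of a relative to its partner within a library do not depend on scaling, and 6 pairs were tested by Cre and by surgery, 12 tests in all. No ratio passed an exact two-sided permutation test with labels permuted within the other factor (400 arrangements, smallest possible p = 0.005). The smallest p was 0.185, for Rpl7l1 to Rpl7 by Cre, and every adjusted p was 1.0. The ratio of Rps27l to Rps27 rested on 3 to 31 counts of Rps27 and that of Rpl3l to Rpl3 on 9 to 73 counts of Rpl3l.

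The members' share of counts moved with sex in each group, with a single male library in every group but UNx CrePlus. On the TMM scale the median member stood at -0.23 in female sham CrePlus replicate 1 and at -0.12 in male replicate 3. The mean share of counts was 2.50% in female and 1.97% in male sham CreMinus libraries, 2.20% and 1.79% in sham CrePlus, 2.21% and 1.89% in UNx CreMinus, and 2.16% and 1.90% in UNx CrePlus. Summed collecting duct markers (5 genes) moved with sex as well, at 567 to 921 CPM in females and 338 to 500 in males, and their part was not tested. All 5 male libraries lay at 1.79% to 1.97%, and the 7 female libraries at 1.91% to 2.67%, with sham CrePlus replicate 1 the lowest of them. In a model with group means and a term for sex, 76 members were higher in females and 6 lower, with a median of 0.17, or 12.5%, against 54.1% of all genes higher and a median of 0.022. Called members numbered 4 of 82, where 20.4% of all tested genes were called, and 31 members had an unadjusted p under 0.05, where 34.0% of all genes did. This comparison was added after the data were examined.

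Rps4x, which is X-linked, had 462, 451, 369, 459, 424, 408 and 446 CPM in the 7 female libraries and 346, 336, 358, 373 and 354 in the 5 male libraries. The sets overlapped only at sham CrePlus replicate 1, the female library at 369, and Rps4x rose in females by 0.30 ± 0.07 (SE; adjusted p = 0.0109, edgeR). The other X-linked members did not pass: Rpl36a was at 0.25 ± 0.12, Rpl10 at 0.14 ± 0.08 and Rpl39 at 0.14 ± 0.09. Rps28 was 115 to 147 CPM in females and 100 to 112 in males, with no overlap, and rose by 0.25 ± 0.08 (adjusted p = 0.0369, edgeR). Rpl38, whose loss alters body patterning in the mouse, rose by 0.25 ± 0.08 (adjusted p = 0.0445, edgeR), with sets that overlapped.

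Rpl3l fell in females by 1.42 on the log2 scale (SE 0.31, adjusted p = 0.00816, edgeR). It had 0.43 to 1.31 CPM in females and 1.23 to 2.47 in males, from 9 to 73 counts per library. Rps28, Rps16 and Rpl28 were the 3 members with all females above all males, where 4.23% of all genes showed that order. The number of called members was 55 with library totals in place of TMM, where 25.9% of all tested genes were called. That scaling moved the median of all genes from 0.022 to 0.13. Relative to all genes, the members' median was then 0.28 against 0.13. The number was 34 without sham CrePlus replicate 1 and 0 without sham CrePlus replicate 3, against 19.7% and 9.63% of all genes. It was 1 without sham CreMinus replicate 3, 7 in DESeq2 and 2 with a term for depth, against 13.2%, 22.1% and 13.5%. It was also 2 without replicate 1 of either CreMinus group, without replicate 2 of any group but sham CreMinus, and without replicate 3 of UNx CrePlus. In these last fits 13.3% to 18.6% of all genes were called. Of the 12 fits that left out a library, Rps4x was called in 10 and Rpl3l in 11, but Rps28 in only 3 and Rpl38 in 2, with adjusted p-values up to 0.136 and 0.142 (edgeR).

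Genes around the ribosome were read for the same comparisons. Of 22 other mRNAs known for a TOP start, 20 were lower with Cre averaged over surgery, with a median of -0.11 and no call. Eif4a2, an RNA helicase of initiation, had the smallest p at -0.27 ± 0.07 (SE; adjusted p = 0.187, edgeR). Of 77 mitochondrial ribosomal protein genes, 67 were lower, with a median of -0.081 and no call. The 53 ribosome assembly genes (29 lower, median -0.0066), 15 genes of RNA polymerase I transcription (11 lower, -0.053) and 31 genes of the mTORC1 pathway (17 lower, -0.0068) had no call either. The Myc family list holds regulators of ribosome production together with Myc antagonists. All 10 were higher with none called, where 7365 of 14970 tested genes were higher. Mxi1, a Myc antagonist, was at 0.40 ± 0.09 (adjusted p = 0.0852, edgeR), and Mxd4 at 0.13. Of the other lists, the smallest p-values belonged to Imp3 (-0.18) and Ltv1 (-0.16) for assembly, Rrn3 (0.23) and Taf1d (-0.23) for RNA polymerase I, and Sesn3 (0.60) and Lamtor3 (-0.17) for mTORC1. Fau was at -0.16. None of these lists had a called gene in the UNx comparison averaged over Cre status.

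Between the sexes, calls in these lists went both ways. Mtor, the kinase of mTORC1, fell in females by 0.80 (SE 0.09, adjusted p = 0.000135, edgeR), at a mean of 181 CPM in females and 305 in males, with no overlap. The mTORC1 list had 2 called genes higher and 4 lower of 31, and the assembly list 1 higher and 3 lower of 53, with Nhp2, a protein of small nucleolar ribonucleoproteins, at -1.23 ± 0.13. Eif2s3x, an X-linked initiation factor gene, rose by 0.59 ± 0.07 and Eif3f by 0.39 ± 0.06 among the 22 TOP genes. Mitochondrial ribosomal protein genes had 4 higher and 5 lower of 77. Each of these shares can be read against the 20.4% of all tested genes that were called.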

How the data were processed

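RNA was extracted from kidney and libraries were made with SMART-Seq v4, per the labels' protocols, a kit that does not mark the strand. The submitters' processing notes name FastQC 0.11.5, cutadapt 1.11, HTSeq, DESeq2 and mm10 (GRCm38); the aligner is not given in the sources used here. The authors deposited 6 tables of whole-number counts per gene, beside their own log2 fold changes and p-values. The 35 library columns that recur in the other 5 tables were identical to those used here. Of 24067 rows per table, 5 repeated symbols were left out. The members and lists were chosen with earlier results of these data known. The protocol gives 3 mice per group. Every library title but that of sham CrePlus replicate 1 holds its own number, which may name the animal. No label says what these numbers are, so the tests speak only to how much these libraries vary. Replicates were numbered in accession order.

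Counts were tested in edgeR 4.0.16 (quasi-likelihood, TMM scaling, filterByExpr, 4 group means over 12 libraries) in R 4.3.3, with Benjamini-Hochberg adjustment over 14970 genes at a threshold of 0.05. DESeq2 1.42.0 was an alternative, as were other scalings, no filter, sex and depth terms, females only and each library left out. The script was tested on simulated data. A log2 CPM used a prior count of 2. Sex was read from Xist and Y-linked counts. Of 8 pairs of relatives, 6 had both genes among the members. In each comparison the 5 members of smallest p in each direction were named where fewer than 10 passed, with all called members, the relatives, and the 3 most and least variable and abundant. Results for a few of the genes this rule picks are not reported here.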

Additional observations from a re-analysis of the deposited data

Results flagged for a closer look

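The log2 ratio of Rps4l to Rps4x stood out because its Cre difference had opposite signs in the 2 surgeries. The ratio was -5.02, -5.06 and -5.23 in sham CreMinus libraries, -4.92, -4.91 and -4.84 in sham CrePlus, -4.68, -4.69 and -4.79 in UNx CreMinus, and -5.33, -5.13 and -5.37 in UNx CrePlus. The CrePlus libraries were all above the CreMinus libraries in sham kidneys and all below them in UNx kidneys. The Cre difference was 0.21 in sham and -0.55 in UNx kidneys, and the interaction was -0.76. An exact two-sided permutation test gave p = 0.005, the smallest that 400 arrangements can give, and 0.03 after Benjamini-Hochberg adjustment over 6 pairs of relatives, of which the other 5 had an adjusted p of 0.755. Its arrangements assume no difference between the permuted labels, so it does not by itself test whether the Cre difference was equal in the 2 surgeries. The test was added after the data were examined, and edgeR's interaction for Rps4l alone did not pass over all genes (adjusted p = 1.0). Leaving out each library gave -0.84 to -0.70.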

How the results depend on the processing

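No paired analysis was possible because the labels give the libraries no shared replicate numbers. No member was called in any Cre, surgery or interaction fit under any alternative run. Counts of called members moved only between the sexes: 4 as reported, 55 with library totals, 2 with a depth term, 7 in DESeq2, and 0 to 34 when each library was left out. In the same order, 20.4%, 25.9%, 13.5%, 22.1% and 9.63% to 21.8% of all tested genes were called. The females-only fit holds 7 libraries, with 1 in UNx CrePlus, replicate 3, which was deep. Values of that fit that involve UNx CrePlus kidneys therefore rest on this library. The other fits with sex or depth terms hold all 12, and the cause of each change was not tested. Without the 100 most abundant other genes, the mean shares were 2.99%, 2.65%, 2.73% and 2.56% for CreMinus then CrePlus sham kidneys and CreMinus then CrePlus UNx kidneys.

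Some values changed sign, not all of them near 0, and none of them was called. For Cre in sham kidneys, library totals gave Rps27l -0.015, Rps28 -0.0092 and Rpl22l1 -0.024, and TMM without the members gave -0.00082, -0.0012 and -0.0028. Rpl22l1 was -0.00093 with a sex term and -0.0043 with sex and depth terms. Females alone gave Rps4l -0.016, Rpl7l1 -0.020 and Rpl22l1 -0.15. For Cre in UNx kidneys, Rpl3l was -0.26 with a sex term, -0.043 with sex and depth terms, -0.39 with a depth term and -0.50 in females, and Rps27l was -0.0026 with sex and depth terms and -0.038 with a depth term. For surgery in CrePlus kidneys, sex and depth terms gave Rpl14 -0.054 and Rps15a -0.011, a depth term gave Rps28 0.10, and females gave Rpl30 -0.084. For Cre averaged over surgery, Rpl3l was -0.29 with a sex term, -0.19 with sex and depth terms, -0.22 with a depth term and -0.78 in females, and Rps27l was -0.015 with a depth term. For surgery averaged over Cre status, library totals gave Rpl7l1 -0.00010 and Rpl14 -0.0081, a sex term gave Rpl7l1 -0.00096 and Rpl36al -0.019, and sex and depth terms gave Rpl7l1 -0.063, Rpl36al -0.057 and Rpl14 -0.082. A depth term gave Rpl7l1 -0.091 and Rpl36al -0.15, and females gave Rpl14 -0.0067. In the interaction, a depth term gave Rps28 0.074 and Rpl37 0.018, and females gave Rpl7l1 0.035. Between the sexes, library totals gave Rpl7l1 0.028. With 1 count added, the ratio of Rps27l to Rps27 by surgery was 0.049.

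Leaving out each library gave these ranges where a sign changed. For Cre in sham kidneys, log2 fold changes were Rps27l -0.11 to 0.14, Rps28 -0.13 to 0.12, Rpl22l1 -0.093 to 0.15, Rps4l -0.089 to 0.19 and Rpl7l1 -0.028 to 0.079. For Cre in UNx kidneys, log2 fold changes were Rps27 -0.29 to 0.74, Rpl3l -0.23 to 0.71 and Rps27l -0.0025 to 0.10. For surgery in CrePlus kidneys, log2 fold changes were Rps12 -0.077 to 0.25, Rpl14 -0.011 to 0.19, Rps15a -0.11 to 0.21 and Rpl30 -0.045 to 0.22. For surgery in CreMinus kidneys, log2 fold changes were Rpl30 -0.0018 to 0.35. For Cre averaged over surgery, log2 fold changes were Rps27l -0.033 to 0.095 and Rpl3l -0.54 to 0.34. For surgery averaged over Cre status, log2 fold changes were Rpl36al -0.081 to 0.068, Rpl14 -0.063 to 0.071 and Rpl7l1 -0.021 to 0.040. For the interaction, log2 fold changes were Rps21 -0.30 to 0.0032. Log2 ratios by surgery ran over Rps27l to Rps27 -0.23 to 0.35, Rps4l to Rps4x -0.038 to 0.024, Rpl3l to Rpl3 -0.17 to 0.56, Rpl22l1 to Rpl22 -0.054 to 0.11 and Rpl7l1 to Rpl7 -0.011 to 0.12. Log2 ratios by Cre ran over Rpl3l to Rpl3 -0.41 to 0.32 and Rps27l to Rps27 -0.13 to 0.43.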
